A study of Mus musculus with 16 samples.

Results

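Genes of the heat shock response and the unfolded protein response were followed through 16 breast tumour xenografts, as 39 of the 24681 mouse gene symbols in the count table. The members were taken by symbol: 14 cytosolic chaperones and their regulators, 3 mitochondrial chaperones, 17 genes of folding and disposal in the endoplasmic reticulum, and 5 genes of the Atf4 arm of the stress response. The rule uses symbols and no measured value, but the set was drawn up with earlier results of these data known. All 39 were found, and all 39 passed the filter on low counts.

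The tumours were AU565(pv), a human HER2-positive breast cancer cell line, grown in a mammary fat pad of SCID mice, a strain without mature lymphocytes of the T and B lines. Each of 4 groups held 4 mice, and tumours were taken on day 2 after treatment began. Vehicle mice received both carriers (D5W and PBS), trastuzumab mice 10 mg/kg of that HER2 antibody with D5W, panobinostat mice 15 mg/kg of that histone deacetylase inhibitor with PBS, and combination mice both drugs. All injections were intraperitoneal, each library came from its own mouse, and neither the sex nor the age of the mice is given in the labels used here. Panobinostat, or D5W in its place, was given on day 0 and again on day 1. The day of the trastuzumab dose differs between 2 places in the labels (day 0 and day 1). The comparisons ask what each drug, alone or with the other, did to chaperone and stress genes in the tumour.

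Cells answer unfolded protein in a compartment-specific way. In the cytosol the factor Hsf1 switches on chaperones of the Hsp70, Hsp90, Hsp40 and small heat shock families. In the endoplasmic reticulum, sensors act through Atf6, Xbp1 and the kinase Perk, whose arm raises Atf4 and, in turn, Ddit3, Trib3, Asns and Chac1. Histone deacetylase inhibitors are known in cell culture to raise the acetylation of Hsp90 and Hspa5 proteins.

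Promoters were searched for sequence elements of these programmes, and a stretch around the match is printed for 6 of the members described below. Promoters came from RefSeq (GRCm38.p6, the assembly that is also called mm10), cover 250 bases before to 50 bases after a gene's start, and matched 32 of the 39 members in 37 entries. Each line below reads 5′ to 3′ along the gene's strand, stops at the start at the latest, and has up to 60 bases on either side of the match, which is in capitals. The capitals mark a heat shock element in the first 2, an endoplasmic reticulum stress element in the third and an Atf4 composite element in the other 3.
Hspa1a, chr17:34972193-34972320, minus strand: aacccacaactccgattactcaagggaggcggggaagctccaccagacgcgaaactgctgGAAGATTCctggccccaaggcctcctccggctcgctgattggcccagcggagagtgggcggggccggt
Hspa1b, chr17:34959275-34959402, minus strand: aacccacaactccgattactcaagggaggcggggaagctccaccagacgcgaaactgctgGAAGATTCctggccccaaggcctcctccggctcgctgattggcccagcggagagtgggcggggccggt
Hspa5, chr2:34771965-34772089, plus strand: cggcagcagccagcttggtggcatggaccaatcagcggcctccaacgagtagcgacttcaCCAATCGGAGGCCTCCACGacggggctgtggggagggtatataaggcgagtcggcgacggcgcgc
Herpud1, chr8:94386257-94386384, plus strand: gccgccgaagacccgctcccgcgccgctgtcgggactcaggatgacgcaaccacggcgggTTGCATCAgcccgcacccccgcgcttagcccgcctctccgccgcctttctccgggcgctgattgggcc
Asns, chr6:7693210-7693292, minus strand: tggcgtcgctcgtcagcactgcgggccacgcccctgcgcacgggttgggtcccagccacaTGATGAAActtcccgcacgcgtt
Chac1, chr2:119350992-119351116, plus strand: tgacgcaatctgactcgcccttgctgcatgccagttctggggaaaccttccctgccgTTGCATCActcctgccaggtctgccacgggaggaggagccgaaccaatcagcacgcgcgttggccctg

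The heat shock element was searched as GAANNTTC or TTCNNGAA, the endoplasmic reticulum stress element as CCAAT and CCACG with 9 bases between them, the unfolded protein response element as TGACGTGG, and the Atf4 composite element as TGATGNAA or TTGCATCA, each on both strands. Counts of genes below take a match in any entry of the gene, whereas shares of all promoters count single entries. A heat shock element was found in 7 of the 10 cytosolic genes with an entry and in 15.1% of all 32851 promoters. The Hspa1a and Hspa1b promoters were identical at 296 of 300 bases, and both held their single match 104 to 97 bases before the start. Hspd1 and Hspe1, which point away from each other, share 1 promoter, and their 3 overlapping matches are the same bases. An endoplasmic reticulum stress element was found in 7 of 15 endoplasmic reticulum genes (Hspa5, Hsp90b1, Calr, Canx, Pdia6, Creld2 and Dnajc3) and in 0.119% of all promoters. The Atf4 composite element was found in Trib3, Asns, Chac1 and Herpud1 and in 3.97% of all promoters, and in Asns it overlapped a heat shock element. No member held the unfolded protein response element, which 0.676% of all promoters held. By entry, 11 of the 37 member entries held a heat shock element (29.7%) and 7 an endoplasmic reticulum stress element (18.9%). The Atf4 composite element was in 4 (10.8%). A match describes letters in a window and says nothing of binding.

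Total counts ran from 4848244 to 8140782 per library, and the 39 genes took 0.866% to 1.12% of them. The labels describe whole tumours of human tumour cells with mouse stroma, epithelial cells and immune cells. Markers of mouse fibroblasts (Col3a1, 6735 CPM on average), adipocytes (Scd1, 5849 CPM) and macrophages (Lyz2, 4481 CPM) were abundant, where CPM is a count over the TMM-scaled library total. The share of reads from the human tumour cells among the counts of these conserved genes was not measured. In whole tumours, fewer cells of a type and less RNA per cell cannot be told apart.

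None of the 39 genes passed the test in any of the 8 comparisons. A gene was called at an adjusted p under 0.05 in edgeR's quasi-likelihood test over 15610 genes. For panobinostat against vehicle 0 of 39 members were called, beside 0.192% of all genes tested; 2 members had an unadjusted p under 0.05, beside 8.1% of all genes. For trastuzumab against vehicle both counts of members were 0, beside 0% and 3.52% of all genes. For the combination against vehicle 0 members were called, beside 2.2% of all genes, and 2 had an unadjusted p under 0.05, beside 13.8%. The combination against trastuzumab gave 0 called and 3 unadjusted, beside 0.628% and 9.26%, and the combination against panobinostat 0 and 2, beside 0% and 4.48%.

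The remaining 3 comparisons used all 16 libraries: each drug averaged over the other, and their interaction. With panobinostat averaged over trastuzumab (8 libraries with the drug against 8 without), 0 members were called, beside 3.02% of all genes, and 4 of 39 had an unadjusted p under 0.05, beside 13.5%. With trastuzumab averaged over panobinostat, 0 were called, beside 0.147%, and 2 had an unadjusted p under 0.05, beside 5.94%. The interaction of the drugs gave 0 and 0, beside 0% and 1.79%. The comparisons share libraries and are not independent. DESeq2 called 1 member, Hspa8, for panobinostat against vehicle, for the combination against vehicle and for panobinostat averaged over trastuzumab, and limma voom called none.

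How large a change the data leave room for is given by the 95% intervals of the log2 changes. With panobinostat averaged over trastuzumab, 34 of 39 intervals lay wholly within a 1.5-fold change in either direction (log2 0.585). The exceptions were Hspa1a, Hspa1b, Ddit3, Trib3 and Chac1. With trastuzumab averaged over panobinostat, 37 of 39 did, and the exceptions were Trib3 and Chac1. The same held for 35 members in panobinostat against vehicle, 33 in trastuzumab against vehicle, 32 in the combination against vehicle and 24 in the interaction, where intervals were widest. Over all genes tested the share within that bound was 74.5% for panobinostat and 79.6% for trastuzumab, averaged over the other drug. Mean CPM of the members stood between the 6.89th percentile of all tested genes (Chac1) and the 99.7th (Hspa5), so the members were not matched to those genes in level.

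**Figure D1:**
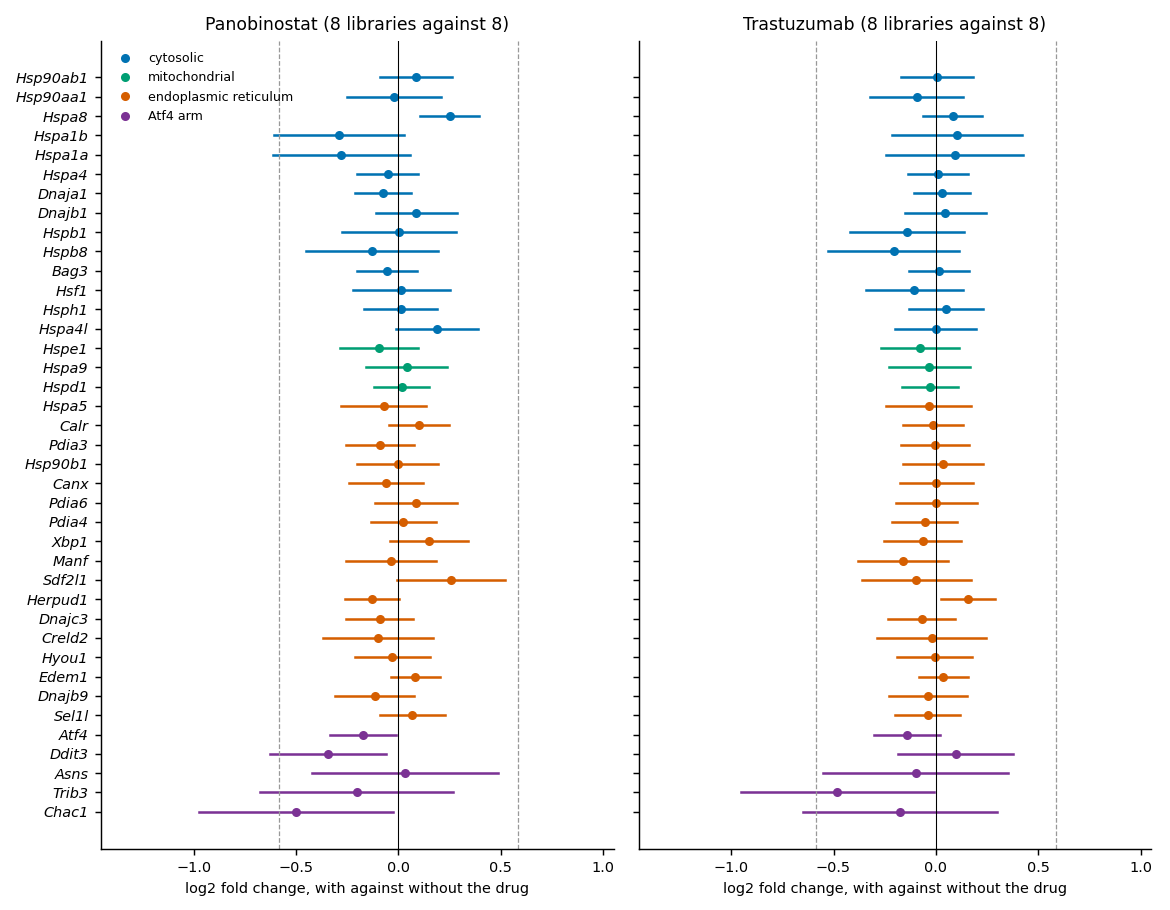
Log2 fold change (x axis) of each of the 39 genes (y axis, by role) with panobinostat, averaged over trastuzumab, and with trastuzumab, averaged over panobinostat; points are estimates, bars are 95% intervals, and dashed lines mark a 1.5-fold change. For panobinostat 34 bars and for trastuzumab 37 bars lie between the dashed lines.

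The members spanned a wide range of levels per length of exon. Hspa5 (BiP, the main Hsp70 of the endoplasmic reticulum) led with a mean of 348 CPM per kb, followed by the lectin chaperone Calr (324), the disulfide isomerase Pdia3 (276), the constitutive cytosolic Hsp90 gene Hsp90ab1 (274) and its endoplasmic reticulum counterpart Hsp90b1 (222). Stress-inducible Hsp90aa1 stood at 126 CPM per kb, and the heat-inducible Hsp70 genes Hspa1b and Hspa1a at 76.9 and 68.6. Of stretches of 50 bases in Hsp90aa1 transcripts, 47.5% also occur in other genes, beside 3.44% for Hsp90ab1. At the low end were Hspa4l, an Hsp110-type exchange factor (1.83 CPM per kb), Trib3, a pseudokinase induced by Atf4 (1.64), and Chac1, a glutathione-degrading enzyme (1.35). The rank of Hspa4l rests on an annotated exon length of 11792 bases, and its mean CPM stood at the 48.7th percentile of all tested genes.

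The median tagwise biological coefficient of variation was 0.136 for the members and 0.156 for all tested genes. For 17 of 39 members the range of the 4 group means on the log2 scale was smaller than the standard deviation within a group (the members' median standard deviation was 0.18). A range above 2 such deviations was found for 4 members. The same counts were not made over all tested genes, so they do not set the members apart from those genes. Edem1, which helps remove misfolded glycoproteins, had the least spread, from 84.5 to 101 CPM over the 16 libraries. The largest within-group deviations were those of Asns (0.50 on the log2 scale), Trib3 (0.49), Chac1 (0.45) and Hspa1a (0.36).

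**Figure D2:**
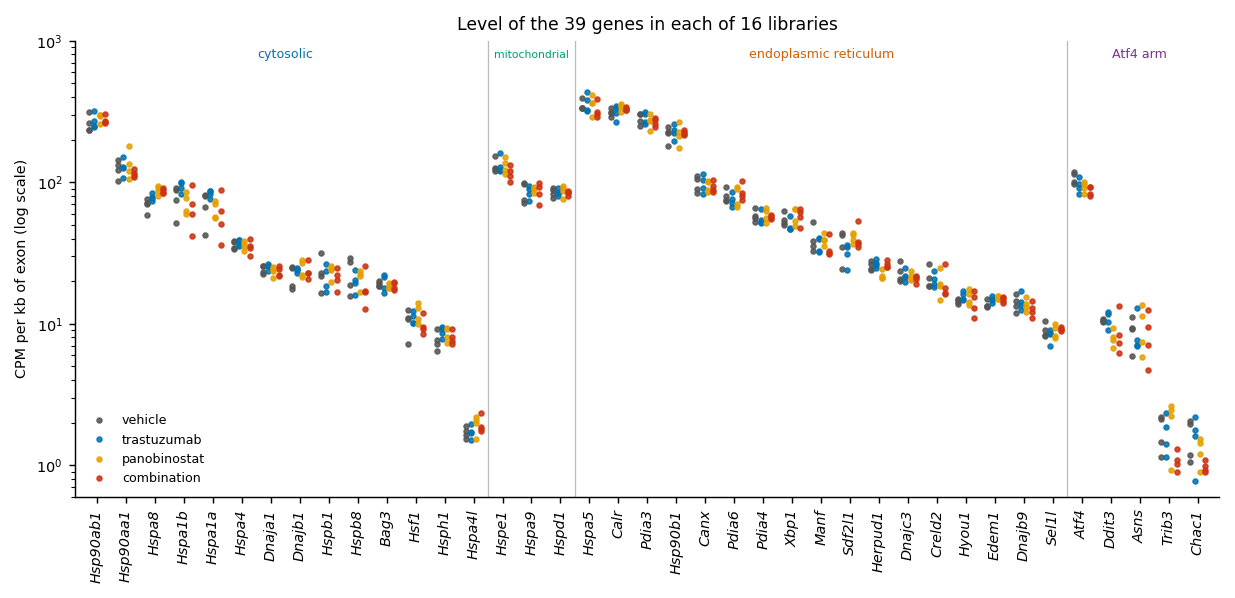
Level of each of the 39 genes (x axis, by role) in CPM per kb of exon (y axis, log scale); each point is 1 library, coloured by group, 4 per group. The genes run from Hspa5 at a mean of 348 to Chac1 at 1.35 CPM per kb, far more than the groups differ within any gene.

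Among the 14 cytosolic members, Hspa8 came nearest to a call. It encodes the constitutive Hsp70 that serves folding, clathrin uncoating and chaperone-mediated autophagy. Hspa8 stood at 329, 253, 301 and 305 CPM in vehicle, at 332, 359, 318 and 340 CPM in trastuzumab, at 393, 375, 404 and 344 CPM in panobinostat and at 361, 361, 392 and 380 CPM in combination libraries. Every panobinostat and combination library was above every vehicle library, and every combination library was above every trastuzumab library. In 7 of the 8 libraries with panobinostat it was above the highest of the 8 without. Among the members, the libraries of a tested pair of groups lay wholly apart only for Hspa8, Herpud1, Atf4 and Ddit3. The share of all genes with groups lying apart in this way was not counted. Whether members lay apart more often than other genes therefore cannot be told, and such separations are descriptions only.

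The log2 change of Hspa8 was 0.35 for panobinostat against vehicle (SE 0.10, adjusted p = 0.177) and 0.33 for the combination against vehicle (SE 0.10, adjusted p = 0.0893). Averaged over trastuzumab it was 0.25 (SE 0.07, interval 0.11 to 0.39, adjusted p = 0.0571), which missed the threshold. Without vehicle replicate 3 it was 0.29 (adjusted p = 0.0478). Trastuzumab alone gave 0.18 (adjusted p = 1.00), and the interaction -0.20 (adjusted p = 1.00). Of windows of 50 bases in Hspa8 transcripts, 39.4% also occur in other genes, chiefly the predicted gene Gm15459, and the gene hosts 3 small nucleolar RNAs (chromosome 9, 40800984 to 40810087, mm10). How its reads were divided among such copies cannot be told from a count table.

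The heat-inducible pair Hspa1a and Hspa1b is the classic output of Hsf1. The 2 genes lie next to each other on chromosome 17 (34969190 to 34972156 and 34956436 to 34959238), share 58.8% of the 50-base windows of Hspa1a, and Hspa1a overlaps the predicted gene Gm20481 on the other strand over 19.0% of its exon bases. Their counts went together in every library, with a ratio of Hspa1b to Hspa1a from 0.990 to 1.148, so they are best read as 1 measurement.

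Hspa1a stood at 240, 125, 200 and 236 CPM in vehicle, at 245, 226, 257 and 259 CPM in trastuzumab, at 219, 167, 209 and 168 CPM in panobinostat, and at 151, 185, 261 and 107 CPM in combination libraries. Trastuzumab libraries were uniformly high, and the combination held both the highest and the lowest library of all 16. The log2 change was -0.07 for panobinostat against vehicle (interval -0.54 to 0.40, adjusted p = 0.982) and -0.49 for the combination against trastuzumab (SE 0.22, unadjusted p = 0.0434, adjusted p = 0.519). Averaged over trastuzumab, panobinostat gave -0.28 for Hspa1a (adjusted p = 0.488) and -0.29 for Hspa1b (adjusted p = 0.429). None of these passed the test. The averaged value of Hspa1a was -0.41 without combination replicate 16, -0.19 without combination replicate 22 and -0.12 with the skeletal muscle score as a covariate. The estimate of Hspa1a against vehicle turned positive without vehicle replicate 3 (0.04) or 29 (0.02) and with that covariate (0.04). The skeletal muscle markers gave negative log2 changes for 6 of 7 tested genes with panobinostat averaged over trastuzumab (median -0.25, 0 called). Their summed level ran from 569 to 998 CPM in vehicle, 689 to 945 CPM in trastuzumab, 589 to 810 CPM in panobinostat and 437 to 776 CPM in combination libraries. Why the Hspa1a estimates moved with that covariate was not tested.

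Hsf1 itself, the transcription factor of the heat shock response, stood at 78.1, 50.7, 76.7 and 89.1 CPM in vehicle, at 71.8, 72.01, 87.5 and 80.9 CPM in trastuzumab, at 99.9, 70.3, 91.9 and 77.1 CPM in panobinostat and at 67.6, 64.7, 84.2 and 60.1 CPM in combination libraries. The groups overlapped in every comparison. Its log2 change was 0.01 for panobinostat averaged over trastuzumab (SE 0.11, adjusted p = 0.982). Hspa4l stood at 18.0 to 22.3 CPM in vehicle and 18.2 to 25.7 CPM in panobinostat libraries, and gave 0.19 (SE 0.09, adjusted p = 0.402).

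None of the other cytosolic members passed the test. Averaged over trastuzumab, the 14 log2 changes with panobinostat ran from -0.29 (Hspa1b) to 0.25 (Hspa8), 7 positive and 7 negative, with a median of -0.01; over all genes the median was -0.00. Hsp90aa1, Hsp90ab1, the Hsp40 genes Dnajb1 and Dnaja1, the Hsp110 gene Hsph1, the small heat shock genes Hspb1 and Hspb8 and the co-chaperone Bag3 were all among them. Hspb8 had the most negative estimate of the role in the combination against vehicle (-0.34, adjusted p = 0.543). In the interaction all 14 cytosolic log2 values were negative, with a median of -0.16, beside -0.01 over all genes. None of the 14 had an unadjusted p under 0.05 there, and the genes share the same 16 libraries.

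The mitochondrial chaperones, which fold imported proteins, gave small differences. Hspd1 (Hsp60) stood at 205 to 239 CPM in vehicle, 210 to 240 CPM in trastuzumab, 202 to 250 CPM in panobinostat and 213 to 228 CPM in combination libraries. Its log2 change with panobinostat, averaged over trastuzumab, was 0.01 (interval -0.12 to 0.15, adjusted p = 0.960). Hspe1 (Hsp10, its lid) ran from 149 to 237 CPM over all libraries and gave -0.10 (interval -0.29 to 0.09, adjusted p = 0.742). Hspa9 (the mitochondrial Hsp70) ran from 300 to 427 CPM and gave 0.04 (interval -0.16 to 0.24, adjusted p = 0.925). All 3 genes had intervals within 1.5-fold in each of the 8 comparisons. Hspd1 and Hspe1 overlap head to head by 112 bases, and the library kit does not mark strand.

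None of the endoplasmic reticulum genes passed the test, and their estimates were small. Hspa5 stood at 1653, 1413, 1419 and 1416 CPM in vehicle, at 1365, 1342, 1613 and 1849 CPM in trastuzumab, at 1527, 1524, 1749 and 1213 CPM in panobinostat, and at 1288, 1321, 1647 and 1218 CPM in combination libraries. Libraries within a group differed more than the groups did. The log2 change was 0.03 for panobinostat against vehicle (interval -0.27 to 0.32, adjusted p = 0.990) and -0.11 for the combination against vehicle (interval -0.40 to 0.18, adjusted p = 0.812). Of the 17 genes in this role, all 17 had intervals within 1.5-fold for panobinostat and for trastuzumab, each averaged over the other drug. The medians were -0.03 and -0.02.

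Sdf2l1, a partner of the Hspa5 cycle, had the largest positive estimate of the role with panobinostat. It stood at 38.4, 48.6, 27.1 and 46.7 CPM in vehicle, at 38.9, 26.8, 40.1 and 34.7 CPM in trastuzumab, at 46.7, 43.0, 48.9 and 40.5 CPM in panobinostat, and at 38.67, 41.7, 40.4 and 58.8 CPM in combination libraries. Every panobinostat library was within the range of vehicle or just above it. The log2 change averaged over trastuzumab was 0.26 (SE 0.13, adjusted p = 0.394).

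Xbp1 encodes the factor that Ire1 activates by splicing, which gene counts do not separate. It stood at 162, 204, 166 and 175 CPM in vehicle, at 189, 152, 152 and 155 CPM in trastuzumab, at 159, 211, 172 and 211 CPM in panobinostat, and at 185, 199, 156 and 211 CPM in combination libraries. The groups overlapped throughout, and panobinostat averaged over trastuzumab gave 0.15 (SE 0.09, adjusted p = 0.519).

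Herpud1, a component of the complex that retrieves misfolded proteins for degradation, had little spread and separated the 2 panobinostat groups. It stood at 57.1, 62.1, 55.8 and 64.9 CPM in vehicle, at 61.0, 63.2, 58.0 and 67.4 CPM in trastuzumab, at 48.8, 48.9, 50.3 and 56.8 CPM in panobinostat, and at 61.6, 58.4, 65.3 and 59.2 CPM in combination libraries. All 4 combination libraries were above all 4 panobinostat libraries, whereas 3 of the panobinostat libraries were below every vehicle library. The log2 change of the combination against panobinostat was 0.25 (SE 0.09, unadjusted p = 0.0101, adjusted p = 0.976), and that of panobinostat against vehicle was -0.23 (SE 0.09, adjusted p = 0.456). For trastuzumab averaged over panobinostat it was 0.16 (adjusted p = 0.714). Its Atf4 composite element is among the sequences printed above.

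The Atf4 arm held the largest estimates of the 4 roles for panobinostat. With panobinostat averaged over trastuzumab, 4 of its 5 genes had negative log2 changes, with a median of -0.20, beside -0.00 over all genes tested. An unadjusted p under 0.05 was found for 3 of the 5. Over all 39 members it was found for 4, and over all genes tested for 13.5%. None of the 5 genes was called. Along with these values, all 10 fibroblast markers gave negative log2 changes (median -0.37, 2 called: Col1a2 and Fap) and all 14 cell cycle markers positive ones (median 0.46, 5 called). The part of such shifts in the Atf4 arm values was not tested.

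Atf4, which encodes the factor at the head of the arm, stood at 272, 278, 231 and 237 CPM in vehicle, at 195, 214, 257 and 229 CPM in trastuzumab, at 230, 194, 237 and 215 CPM in panobinostat, and at 218, 189, 194 and 218 CPM in combination libraries. Every combination library was below every vehicle library. The log2 change of the combination against vehicle was -0.31 (SE 0.11, unadjusted p = 0.0104, adjusted p = 0.175), and with panobinostat averaged over trastuzumab it was -0.17 (adjusted p = 0.327). Translation, through which Perk raises Atf4 protein, is not seen in RNA counts.

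Ddit3 encodes CHOP, a factor of prolonged stress that favours cell death. It stood at 18.1, 17.5, 18.6 and 17.9 CPM in vehicle, at 17.7, 20.6, 15.5 and 20.2 CPM in trastuzumab, at 11.6, 13.2, 13.8 and 16.1 CPM in panobinostat, and at 12.5, 14.3, 10.7 and 22.8 CPM in combination libraries. All 4 panobinostat libraries were below all 4 vehicle libraries, and 3 of 4 combination libraries were as well, while combination replicate 22 was the highest of all 16. The log2 change was -0.40 for panobinostat against vehicle (SE 0.19, adjusted p = 0.625) and -0.34 averaged over trastuzumab (SE 0.13, adjusted p = 0.237). Without combination replicate 22 the averaged value was -0.48 and passed the threshold (adjusted p = 0.0152). Ddit3 overlaps Mars and the predicted gene Gm4189 on the opposite strand over 4.73% of its exon bases.

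Chac1 was the least abundant member, with 8 to 26 reads per library. It stood at 3.22, 1.93, 1.74 and 3.39 CPM in vehicle, at 3.57, 1.27, 2.92 and 2.61 CPM in trastuzumab, at 1.96, 2.36, 2.51 and 1.48 CPM in panobinostat, and at 1.62, 1.46, 1.52 and 1.77 CPM in combination libraries. Combination libraries were low and close to each other, and both control groups held low libraries too. Panobinostat averaged over trastuzumab gave a log2 change of -0.50 (interval -0.97 to -0.03, adjusted p = 0.334).

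Trib3 and Asns are described here after their values were seen. Trib3 stood at 2.41, 4.67, 4.52 and 3.08 CPM in vehicle, at 4.94, 3.01, 3.97 and 2.44 CPM in trastuzumab, at 1.96, 5.57, 5.19 and 4.76 CPM in panobinostat, and at 2.75, 2.33, 1.91 and 2.16 CPM in combination libraries, from 10 to 36 reads. Panobinostat libraries were above all combination libraries except for panobinostat replicate 4, which was below most of them. The log2 change of the combination against panobinostat was -0.93 (SE 0.32, unadjusted p = 0.0099, adjusted p = 0.976). Asns, the asparagine synthetase gene, varied 2.86-fold over the libraries without any group standing apart, and panobinostat averaged over trastuzumab gave 0.03 (adjusted p = 0.977).

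**Figure D3:**
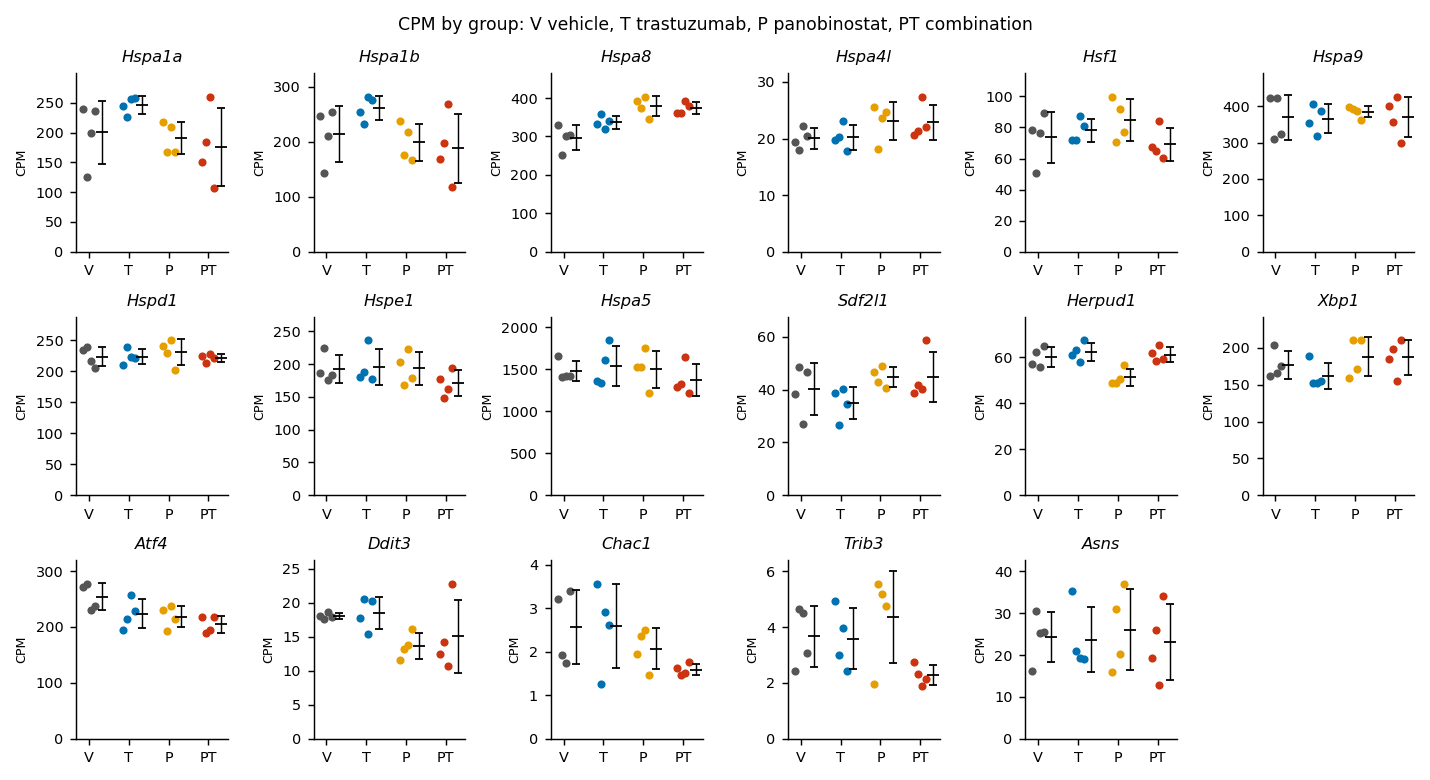
CPM (y axis, from 0) of 17 members in vehicle (V), trastuzumab (T), panobinostat (P) and combination (PT) tumours; each point is 1 library and bars are the mean and SD of 4. For Hspa8 every P and PT point lies above every V point, for Ddit3 every P point lies below every V point, and for Atf4 every PT point lies below every V point. The share of all genes with groups lying apart in this way was not counted.

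Cytosolic chaperones were set against the other roles within each library. The mean centred log2 level of the 14 cytosolic genes less that of the 17 endoplasmic reticulum genes was -0.05 ± 0.21 in vehicle, 0.07 ± 0.10 in trastuzumab, 0.03 ± 0.14 in panobinostat and -0.05 ± 0.09 in combination tumours (SD, n = 4 each). The ranges of all 4 groups overlapped. The Atf4 arm less the endoplasmic reticulum genes was 0.14 ± 0.08, 0.11 ± 0.24, 0.00 ± 0.22 and -0.25 ± 0.24 in the same order. Here vehicle (0.05 to 0.24) and combination libraries (-0.56 to 0.01) did not overlap. Each gene of the arm has equal weight in this mean, also Trib3 and Chac1 with their few reads, and their part in it was not tested. The mean centred level of the Atf4 arm was -0.26, -0.25 and -0.57 in combination replicates 2, 11 and 16 and 0.04 in combination replicate 22.

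Some genes of the same pathways outside the 39 were called. Of 38 other heat shock genes tested, 1 fell and 0 rose with panobinostat averaged over trastuzumab, with a median log2 change of -0.04. Of 34 other unfolded protein response genes, 1 rose and 0 fell (median -0.03), and of 33 other Atf4 pathway genes, 1 rose and 1 fell (median -0.03). These counts stand beside the 3.02% of all genes called there, and are too small to set the lists apart from that share. In the combination against vehicle, 1 of 38 other heat shock genes fell and 1 of 34 other unfolded protein response genes rose. Of the 33 other Atf4 pathway genes 1 rose and 1 fell there, beside 2.2% of all genes called.

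Cryab, the small heat shock protein alpha B-crystallin, fell by 0.53 on the log2 scale with panobinostat averaged over trastuzumab (adjusted p = 0.0158, and up to 0.0428 over 25 alternatives). It stood at 271, 194, 226 and 311 CPM in vehicle, at 206, 230, 286 and 261 CPM in trastuzumab, at 205, 182, 220 and 159 CPM in panobinostat, and at 178, 118, 171 and 149 CPM in combination libraries. Every combination library was below every vehicle and every trastuzumab library. The combination against vehicle gave -0.70 (SE 0.16, adjusted p = 0.0296). Leaving out combination replicate 11 or 22, or vehicle replicate 3 or 29, ended that call (adjusted p up to 0.105). Cryab overlaps Hspb2 on the opposite strand over 17.0% of its exon bases, and its part in the count cannot be told apart.

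Ero1lb, an oxidase that supplies disulfide bonds in the endoplasmic reticulum, rose by 0.42 with panobinostat averaged over trastuzumab (adjusted p = 0.0411). It stood at 14.7, 9.01, 13.6 and 13.9 CPM in vehicle, at 15.8, 15.8, 13.4 and 13.4 CPM in trastuzumab, at 18.5, 17.7, 15.4 and 16.4 CPM in panobinostat, and at 21.8, 16.02, 20.2 and 20.4 CPM in combination libraries. In 7 of the 8 libraries with panobinostat it was above the highest without. The averaged call ended without any one of 13 libraries (adjusted p up to 0.0920): trastuzumab replicate 15, 20 or 24, vehicle replicate 6, 21 or 29, combination replicate 2, 16 or 22, and panobinostat replicate 4, 7, 8 or 13. The call against vehicle (log2 change 0.62, adjusted p = 0.0383) ended when combination replicate 2, 16 or 22, or vehicle replicate 6, 21 or 29, was left out (adjusted p up to 0.0985).

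Eif2ak2 encodes PKR, a kinase of eIF2 alpha that senses double-stranded RNA and is itself induced by interferon. It rose by 0.60 with panobinostat averaged over trastuzumab (adjusted p = 0.00505) and by 0.75 in the combination against vehicle (adjusted p = 0.0127). It stood at 54.5, 72.9, 51.6 and 57.6 CPM in vehicle, at 64.6, 67.9, 59.3 and 53.3 CPM in trastuzumab, at 84.6, 92.3, 77.6 and 78.8 CPM in panobinostat, and at 88.3, 105, 74.5 and 131 CPM in combination libraries. All 8 libraries with panobinostat were above all 8 without. The averaged call held under all 25 alternatives run (adjusted p up to 0.0165). The call against vehicle was lost without combination replicate 11 (0.0501). The call against trastuzumab (0.70, adjusted p = 0.0448) ended without any one of combination replicate 11 or 22, vehicle replicate 3, 21 or 29, trastuzumab replicate 12, 15, 20 or 24, and panobinostat replicate 4, 7, 8 or 13 (adjusted p up to 0.172).

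Of the other Atf4 pathway genes, 2 more were called, both lower. Pycr1, an enzyme of proline synthesis, stood at 20.8 to 23.7 CPM in vehicle and 11.7 to 16.02 CPM in combination libraries, without overlap, and fell by 0.60 (adjusted p = 0.0273). Leaving out combination replicate 11 or 22, or any vehicle library (replicate 3, 6, 21 or 29), ended that call (adjusted p up to 0.101). Gdf15, a stress-induced cytokine with 3 to 21 reads per library, fell by 1.13 with panobinostat averaged over trastuzumab (adjusted p = 0.0246), and 7 of the 8 libraries with the drug were below the lowest without. Leaving out panobinostat replicate 4 or 7, trastuzumab replicate 15, 20 or 24, or vehicle replicate 29 ended that call (adjusted p up to 0.0570).

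**Figure D4:**
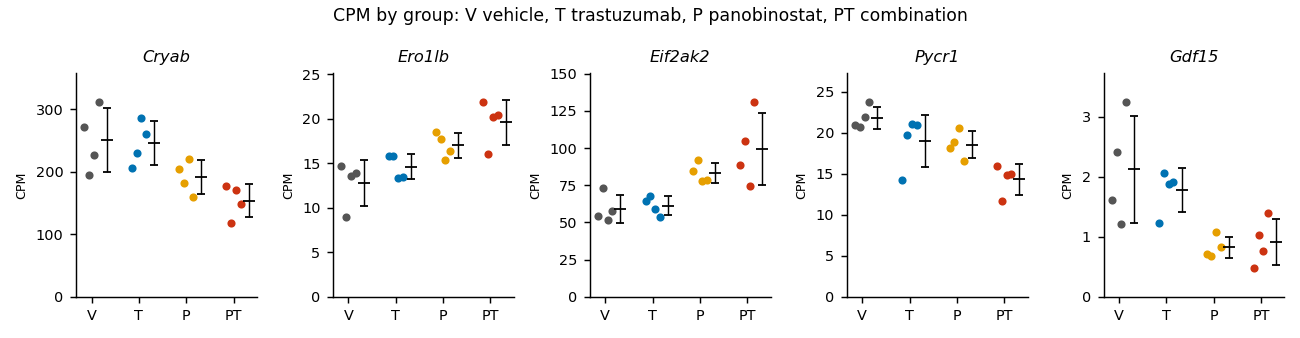
CPM (y axis, from 0) of the 5 called pathway genes outside the 39 in vehicle (V), trastuzumab (T), panobinostat (P) and combination (PT) tumours; each point is 1 library and bars are the mean and SD of 4. All 8 P and PT points of Eif2ak2 lie above all V and T points, and every PT point of Cryab lies below every V and T point.

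Several members varied with markers of other cell types. Over the 16 libraries, each member's log2 level was set against the summed level of 9 marker lists, 351 relations in all. In 11 of them both Pearson's r and Spearman's rho passed a Benjamini-Hochberg adjusted p of 0.05 (100000 permutations). The permutations exchanged libraries across the treatment groups, so differences between groups can be part of these relations. Summed adipocyte markers ran from 4364 to 28280 CPM, and each group held both low and high libraries.

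Asns rose with the adipocyte sum (r = 0.87, permutation p = 2e-05, adjusted p = 0.00526; rho = 0.86, permutation p = 5e-05, adjusted p = 0.00702). Without the 2 libraries farthest from the median r was 0.89, and it was 0.89 for deviations from the group means. Asns stood at 37.1 CPM in panobinostat replicate 13, which had the highest adipocyte sum, and at 12.95 CPM in combination replicate 16, which had the lowest sum of its group. Xbp1 also rose with that sum (r = 0.80, permutation p = 0.00035, adjusted p = 0.0136; rho = 0.76, permutation p = 0.00087, adjusted p = 0.0363). Hspa5 (r = -0.80, permutation p = 3e-04, adjusted p = 0.0136; rho = -0.76, permutation p = 0.00109, adjusted p = 0.0383) and Hsp90b1 (r = -0.80, permutation p = 9e-05, adjusted p = 0.00772; rho = -0.79, permutation p = 0.00039, adjusted p = 0.0226) went the other way. Without the farthest 2 libraries r was 0.82 for Xbp1, -0.72 for Hspa5 and -0.71 for Hsp90b1. For deviations from the group means it was 0.85, -0.84 and -0.80 in the same order.

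Hspa1a, Hspa1b and Hsf1 went up with the list of skeletal muscle markers, and Sel1l, an adaptor of endoplasmic reticulum disposal, went down. In that order r was 0.85, 0.87, 0.79 and -0.75 (permutation p of 5e-05, 3e-05, 0.00031 and 0.00079; adjusted p of 0.00585, 0.00526, 0.0136 and 0.0213). Their rho was 0.79, 0.82, 0.88 and -0.84 (permutation p of 0.00045, 2e-04, 3e-05 and 6e-05; adjusted p of 0.0226, 0.0175, 0.00702 and 0.00702). Without the 2 farthest libraries r was 0.80, 0.82, 0.76 and -0.84. That list is nearly all 1 gene here: Acta1, skeletal muscle actin, supplied 93.1% to 96.4% of its sum, at 412 to 929 CPM. The muscle creatine kinase gene Ckm was at 0 to 8.17 CPM. Hspa1a correlated with Acta1 alone at r = 0.85 (permutation p = 6e-05; rho = 0.81, permutation p = 0.00027) and with the sum of the other muscle genes at r = 0.77 (permutation p = 0.00026; rho = 0.77, permutation p = 0.00075). Without the 2 farthest libraries these were 0.78 and 0.82. These last 2 relations were chosen after the data were seen and belong to a set of 8, in which the adjusted p for r were 0.00024 and 0.000693 and those for rho 0.00054 and 0.00117. In that set, r with the sum of the other muscle genes was 0.762 for Hspa1b, 0.695 for Hsf1 and -0.567 for Sel1l. Their rho was 0.759, 0.582 and -0.644. Without the 2 farthest libraries r was 0.825, 0.502 and -0.456. With Acta1 alone, r over the 16 libraries was 0.783 for Hsf1 and -0.756 for Sel1l. The other muscle genes summed to only 20.76 to 68.88 CPM, and the difference between these r was not tested.

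The remaining relations were single ones. Hspe1 went down as the endothelial sum went up (r = -0.78, permutation p = 0.00046, adjusted p = 0.0161; rho = -0.74, permutation p = 0.00144, adjusted p = 0.0459). Its r was -0.59 without the 2 farthest libraries and -0.76 for deviations from the group means. Hsp90ab1 went down with the fibroblast sum (r = -0.71, permutation p = 0.00255, adjusted p = 0.0426; rho = -0.74, permutation p = 0.00157, adjusted p = 0.0459; r = -0.71 without 2). Canx, a membrane-bound lectin chaperone, went up with the plasma and B cell sum (r = 0.71, permutation p = 0.00216, adjusted p = 0.0399; rho = 0.76, permutation p = 0.00093, adjusted p = 0.0363; r = 0.63 without 2). Most of that last sum was Sdc1, at 83.3 CPM on average, which other cells express as well. For these relations within single groups, 4 libraries were too few.

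**Figure D5:**
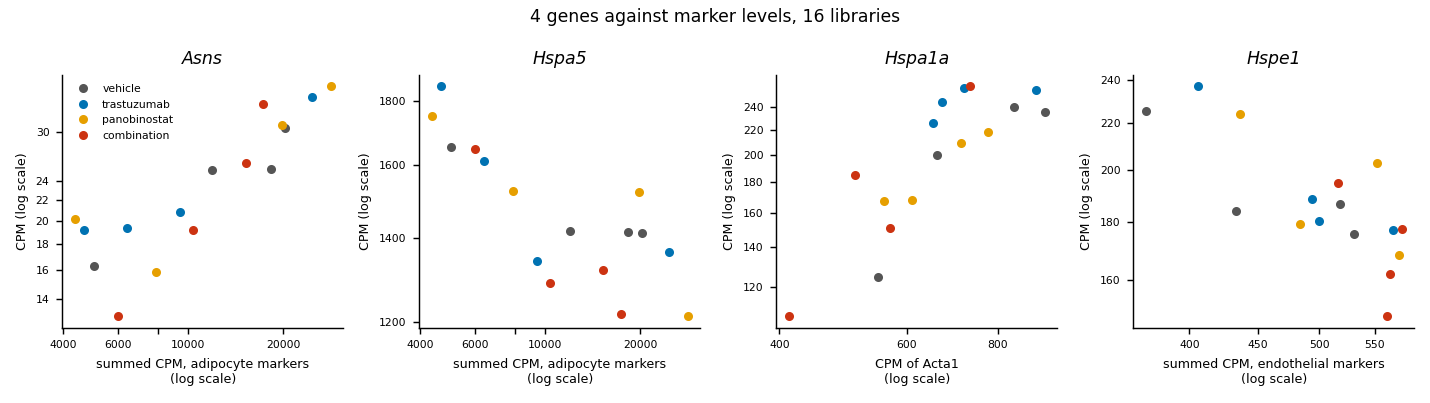
CPM of 4 members (y axis, log scale) against the summed CPM of adipocyte markers, the CPM of Acta1 or the summed CPM of endothelial markers (x axis, log scale); each point is 1 of 16 libraries, coloured by group. Asns is high where adipocyte markers are high (r = 0.87) and Hspa5 is low there (r = -0.80), with each colour spread along both trends. In the Hspe1 panel the combination points all lie at 516 to 576 CPM of endothelial markers, while vehicle points go down to 371 CPM.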

How the data were processed

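RNA of 16 whole tumours (4 groups of 4 mice) was sequenced. The deposited values are raw read counts per mouse gene. Per the submitters' processing notes, CASAVA 1.8.2, TopHat2, HTSeq and mm10 were used; the sources used here name neither settings nor a separation of human reads. In 1327 of 24681 symbols all 8 panobinostat-treated libraries hold a dot, and these were left out. The other 23354 were kept. Totals over all given values were 4848244 to 8140782.

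edgeR 4.0.16 (R 4.3.3; TMM, filterByExpr, quasi-likelihood F test) fitted 15610 genes over all libraries, common coefficient of variation 0.183, with Benjamini-Hochberg adjustment over all genes. The SE is the log2 change over the square root of F. Intervals are 95%. Nothing in the labels pairs mice, and every replicate number (mouse) occurs once. Alternatives used DESeq2 1.42.0, limma 3.58.1, other scaling and filters, marker score covariates, the compared groups alone and each library left out. The procedure was tested on simulated data. Lengths and overlaps came from GENCODE annotation of GRCm38.

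Members and lists were chosen with earlier results of these data known. Values by library are given for called members, the 3 per role with the smallest p for panobinostat averaged over trastuzumab, and Hspa1a, Hspa1b, Hspa5, Hspa8, Hsf1, Atf4, Ddit3 and Xbp1. Up to 3 called genes per other list and comparison are named.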

Additional observations from a re-analysis of the deposited data

Results flagged for a closer look

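Among 60 groups of 4 libraries tested over the 15 named members, 3 held a library far from the others; chance flags about 1 in 20 groups. Hspa5 was at 1653 CPM in vehicle replicate 3, and the other 3 vehicle libraries were between 1413 and 1419 CPM. Sdf2l1 was at 58.8 CPM in combination replicate 22, and the other 3 were between 38.67 and 41.7 CPM. Xbp1 was at 188.8 CPM in trastuzumab replicate 12, and the others were between 152.2 and 154.6 CPM. Vehicle replicate 3 had the lowest adipocyte sum of its group (5005 CPM) and trastuzumab replicate 12 the highest of its group (24680 CPM). The part of these sums in the flagged values was not tested.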

How the results depend on the processing

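Up to 26 alternatives were run for each comparison. The count of members called stayed at 0 in all of them for trastuzumab against vehicle, the combination against trastuzumab and against panobinostat, trastuzumab averaged over panobinostat, and the interaction. It became 1, Hspa8, for panobinostat against vehicle by DESeq2 (adjusted p = 0.0198) and when the adipocyte score was a covariate (0.0369). It became 1, again Hspa8, for the combination against vehicle by DESeq2 (0.0115) and with the skeletal muscle (0.0347) or adipocyte score (0.0207). For panobinostat averaged over trastuzumab it became 1, Hspa8, by DESeq2 (0.00528), with genes of at least 5 CPM (0.0477), and with the skeletal muscle (0.0211) or adipocyte score (0.0096). With each library left out in turn that count ran from 0 to 1: Hspa8 without vehicle replicate 3 and Ddit3 without combination replicate 22. Over all alternatives the adjusted p of Hspa8 ran from 0.00528 to 0.122 in that comparison. The cause of these differences was not tested.

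No called value changed sign. Of 3066 results of the 15 named members under alternatives, 182, none of them called, had another sign than the value given. RLE scaling moved the median of all genes by 0.0002 and total-count scaling by 0.026 (log2). Pathway genes lost calls with the luminal score as a covariate (Cryab, Ero1lb, Eif2ak2 and Pycr1 for the combination against vehicle, adjusted p = 0.26, 0.229, 0.0717 and 0.232) and with only those groups fitted (0.109, 0.157, 0.0816 and 0.0861). The Cryab call of that comparison was also lost under total-count scaling (0.0511). The Ero1lb call for panobinostat averaged over trastuzumab was lost with no low-count filter (0.0502) and with the luminal score (0.0564). The Eif2ak2 call for the combination against trastuzumab was lost by limma voom (0.0684), with the luminal (0.0683) or skeletal muscle score (0.0947) and with only those groups fitted (0.198). No paired analysis was possible because every replicate number occurs in 1 library only. Chac1, Trib3 and Gdf15 rest on few reads, and the part of depth in the width of their intervals was not tested.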
